A study of Mus musculus with 2 samples.

Results

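Translation factor and aminoacyl-tRNA synthetase genes were measured in the cerebral cortex of wild type and Pax6-/- mouse embryos at embryonic day E14.5. The members were all probe sets with a single platform gene symbol that begins with Eif1 to Eif6, Eef1, Eef2 or Pabpc, is Etf1, or is 1 letter followed by ars or ars2, without Y-linked genes. The rule gave 99 probe sets for 72 of the 8251 genes that could be named, and 67 of the 72 lay above the signal filter described below. By role they were 32 initiation factor genes, 7 elongation factor genes, 20 synthetase genes, 9 genes of proteins that regulate or modify the factors, and 4 genes of poly(A)-binding proteins and the release factor. The rule also took in Eef1akmt1, which encodes a methyltransferase acting on elongation factor eEF1A.

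Both groups were NMRI mice, 1 without modification and 1 labelled Pax6-/-, with no further allele or treatment named. Total RNA from cerebral cortex was turned into biotin-labelled cRNA for Affymetrix arrays, 1 array per genotype. The design text names 3 embryos per genotype, and whether their RNA was pooled is not given in the sources used here. A whole dissected cortex holds several cell types, so fewer cells of a type and less RNA per cell cannot be told apart in any value below. The number of arrays limits the precision throughout: there is no replicate, no p-value and no test between genotypes.

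Protein synthesis starts when initiator tRNA, carried by the GTPase eIF2, joins the small ribosomal subunit with eIF1, eIF1A, eIF3 and eIF5, and the cap-binding complex eIF4F brings in the mRNA. Elongation factor eEF1A then delivers charged tRNAs, eEF2 moves the ribosome along, and the release factor eRF1 ends the chain at a stop codon. Synthetases charge tRNAs with their amino acids, with largely separate sets for the cytosol and the mitochondria. Synthetase genes ending in ars2 are here called mitochondrial and the others cytosolic. The naming goes by symbol only, so a gene that serves both compartments counts as cytosolic. Phosphorylation of eIF2 by stress kinases lowers initiation while raising the translation of the transcription factor ATF4. ATF4 binds composite C/EBP-ATF sites in genes of amino acid supply, several synthetase genes among them.

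Promoter sequence was examined for features shared within the roles. Of the 72 members, 54 had an entry in the RefSeq promoter table (GRCm38.p6), 250 bases before to 50 bases after an annotated start, a window of 300 bases. The letters TGATGCAA, a form of the composite C/EBP-ATF site, were found on either strand in 4 of 13 synthetase genes, in 0 of the 41 other members and in 1.03% of all 27025 genes of the table. Stretches of 30 bases follow for 3 of the 4, because only synthetase genes among the members held the motif in these windows, with the motif or its reverse complement in capitals. The stretches lie at chr13:49682126-49682155 (plus strand) for Iars, chr15:11399655-11399684 (minus) for Tars and chr4:129189895-129189924 (plus) for Yars.
Iars: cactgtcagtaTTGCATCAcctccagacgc
Tars: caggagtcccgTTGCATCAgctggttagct
Yars: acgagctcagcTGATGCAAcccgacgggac

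The Tars motif began 15 bases before the annotated start, whereas those of Iars and Yars lay just after it. The letters CCGGAAGT, bound by ETS family factors, were found in 9 of the 54 members against 4.31% of all genes, and AAGATGGC, a form of the YY1 site, in 4 of 54 against 3.19%. Both were searched on both strands. Among the members at least 2-fold apart between the arrays, Eif2b4 (chr5:31193120-31193149, minus) and Rars2 (chr4:34614941-34614970, plus) held the ETS letters and Eif3f (chr7:108934418-108934447, plus) the YY1 letters, all at the annotated start or within 22 bases of it. They are shown because these 3 genes are among the 8 members at least 2-fold apart.
Eif2b4: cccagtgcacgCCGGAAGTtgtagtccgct
Rars2: aagcagaggcgACTTCCGGcgcggaggcgg
Eif3f: tctttctcggcAAGATGGCttctccggccg

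The same letters stood in members with small differences. Of the genes with the ETS letters, Eif2b2 was at a log2 ratio of 0.02 and Eef1b2 at −0.06, and with the YY1 letters Eif4a1 was at −0.08. A match describes these letters only.

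Values are MAS5 signals, a linear intensity per probe set, and log2 ratios are mutant over wild type after adding a pseudocount of 81.5, which understates the difference of dim genes. Where a gene had several probe sets, the one with the greater mean signal stood for it, and a filter removed probe sets whose mean log2 value was under the 40th percentile, which corresponds to a signal of 166. The spread of log2 ratios between probe sets of the same gene served as a technical spread: 0.72 at signals below 471, 0.54 from there to 828 and 0.38 above. Differences between embryos are not part of it. Over all probe sets the wild type array had a median signal of 237, against 284 for the mutant. Pax6 itself read 1169 and 447, a log2 ratio of −1.29; the labels do not place its probe set relative to the mutation, so this value is no check of them.

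Across the 67 members above the filter, 24 had a higher and 43 a lower log2 ratio in the mutant, with a median of −0.13 beside −0.02 for all 5587 genes. Lower were thus 64.2% of members beside 51.6% of all genes. At least 2-fold lower were 7 of 67 members, or 10.4%, beside 5.62% of all genes. The order of these shares depended on the threshold and the pseudocount: at 1.5-fold 9 of 67 members (13.4%) were lower beside 15.3% of all genes, at 3-fold 0 of 67 beside 1.25%, and with the pseudocount at the 50th percentile 1 of 67 (1.49%) was 2-fold lower beside 2.29%. At least 2-fold higher was 1 of 67, or 1.49%, beside 5.17% of all genes. The 7 were Sars, Eif1b, Eif2b4, Rars2, Qars, Eif2d and Eif1a, and the 1 was Eif3f; Eif1a passed the filter only through the wild type array, where it was high. Brighter genes in general had lower ratios on the mutant array, from a median of 0.20 in the dimmest decile of all genes to −0.27 in the brightest. After loess scaling, which removes that trend, 30 members were higher and 37 lower (55.2%, beside 50.3% of all genes), and the median was −0.05. At least 2-fold lower were then 6 of 67 (8.96%) beside 6.64% of all genes, and 1 of 67 (1.49%) was at least 2-fold higher beside 3.85%. The shares of 51.6% and 50.3% of all genes lower are the base for the splits below.

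**Figure D1:**
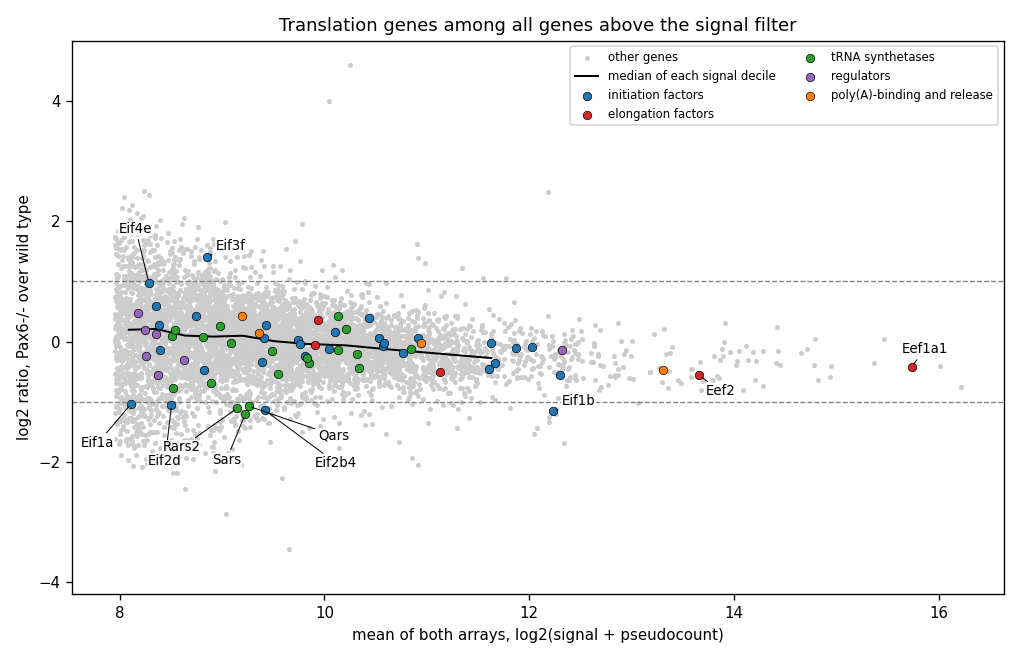
Log2 ratio (Pax6-/- over wild type) against the mean log2 signal of both arrays for all 5587 genes above the filter; members are coloured by role, dashed lines mark 2-fold and the black line joins the medians of the signal deciles. Eif3f lies above the upper dashed line at 1.41 and 7 members lie below the lower one, while Eef1a1, Eef2 and Pabpc1 sit far to the right, where all genes tend below 0.

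Initiation factors had a median of −0.08, with 12 of 31 higher and 19 lower; after quantile and loess scaling the median was 0.03 and 0.04, so the group as a whole had no stable direction. Among the factors that scan for the start codon, 2 genes were past 2-fold, Eif1b and Eif1a. Eif1b encodes a close relative of eIF1, the factor that guards start codon choice. Its signal was 7003 on the wild type and 3193 on the mutant array, a log2 ratio of −1.16, or 2.23-fold lower, against a technical spread of 0.38. After loess and quantile scaling it lay just short of 2-fold, no nearer to 0 than −0.89. The median of all genes in its signal decile was −0.27.

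Eif1a and Eif1ax encode forms of eIF1A, which works with eIF1 in scanning, and their probe sets behaved differently. The brighter Eif1a probe set read 308 in wild type against 115 in the mutant, a log2 ratio of −1.04 with a technical spread of 0.72. Its mutant signal lay below the filter level of 166. The other read 238 and 160, a ratio of −0.45. Both Eif1a probe sets were lower in the mutant, and the gene counts as 2-fold lower only with the first. Eif1ax read 1443 and 1469 with one probe set and 740 and 826 with the other, ratios of −0.02 and 0.10, both within the technical spread. Eif5, the GTPase activator of eIF2, was at 946 and 1096, a ratio of 0.15. Eif5b, which joins the subunits, was at 266 and 242, a ratio of −0.15, while its second probe set, below the filter, read 252 and 39.1.

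The eIF2 complex that carries initiator tRNA was measured by its beta and gamma subunit genes. Eif2s2 (beta) had signals of 181 and 327, a ratio of 0.59, and its dimmer probe set, below the filter, read 93.8 and 231 with a ratio of 0.79. Eif2s3x (gamma) was nearly equal on both arrays, at 4164 and 4013. Thus both Eif2s2 probe sets were higher in the mutant, the first by less than the technical spread of 0.72, and Eif2s3x was not. Eif2b4, the delta subunit of eIF2B, which recharges eIF2 with GTP, read 922 in wild type against 387 in the mutant, a ratio of −1.15, or 2.21-fold lower, with a technical spread of 0.54. Its probe set carries the suffix for probes shared with other transcripts, and no other probe set measured the gene. The other measured eIF2B subunits differed less: Eif2b1 (alpha) read 876 and 759, Eif2b2 (beta) 754 and 793, and Eif2b5 (epsilon) 1002 and 943, ratios of −0.23, 0.02 and −0.13. The second Eif2b5 probe set gave −0.19. Of the 4 measured subunits 3 were thus lower, and Eif2b4 alone was 2-fold apart; with 1 array each, the difference between subunits could not be tested.

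Eif2d and Eif2a encode factors that can deliver initiator tRNA without eIF2. Eif2d had signals of 434 and 175, a ratio of −1.05, or 2.08-fold lower. Its second probe set was nearly equal, at 206 and 192, a ratio of −0.12. The 2-fold difference of Eif2d thus rests on 1 of 2 probe sets. The gap between them was 0.94, and the technical spread of 0.72 applies to a single probe set, not to such a gap. Eif2a had signals of 446 and 309, a ratio of −0.48.

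The eIF3 complex is the large scaffold that holds the small subunit and binds eIF4F, and 10 of its subunit genes were above the filter. Their median was −0.07, with 4 higher and 6 lower, and 0.12 after loess scaling, with 6 higher and 4 lower. Eif3f read 198 in wild type against 686 in the mutant, a ratio of 1.41, or 2.66-fold higher, with a technical spread of 0.72. Eif3f was the only member at least 2-fold higher, and it stayed past 2-fold in all 10 alternative settings. It had 1 probe set without a suffix, so the settings that choose or average probe sets could not change its value. The wild type signal of Eif3f lay near the filter, so the fold depends on the pseudocount. It ran from 1.01 to 1.74 on the log2 scale over the 10 settings.

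The remaining eIF3 subunits lay between −0.56 and 0.43. Eif3l read 5959 and 4134, Eif3b 3505 and 2619, Eif3d 3544 and 2847 and Eif3a 659 and 523, with ratios of −0.56, −0.45, −0.35 and −0.34. Eif3c, at 3727 and 3580, and Eif3k, at 3074 and 3104, were close to equal. Eif3e at 218 and 290, Eif3m at 1106 and 1529 and Eif3j1 at 282 and 424 were higher in the mutant, with ratios of 0.27, 0.39 and 0.43. The subunits of this one complex therefore did not share a direction, and all 6 lower ones except Eif3a lie in the brightest decile, where the median of all genes was −0.27. The dimmer probe sets of Eif3b, Eif3e and Eif3l fell below the filter; that of Eif3l read 27.4 and 148, opposite in direction to the bright one.

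Cap-binding factors of the eIF4 family centred near 0, with a median of 0.05 over 7 genes. Eif4e, the cap-binding protein itself, read 137 in wild type against 363 in the mutant, a ratio of 0.98, just short of 2-fold and against a technical spread of 0.72. Its wild type signal was below the filter level, so the gene passed only through the mutant array, and its ratio ran from 0.62 to 1.36 over the alternatives. Eif4e2, a relative that competes for caps, had ratios of 0.27 (535 and 688) and 0.96 (143 and 370) with its 2 probe sets. The helicase genes Eif4a1 and Eif4a2 read 1459 and 1422, and 1753 and 1575, and the scaffold genes Eif4g2 and Eif4g3 read 576 and 623, and 786 and 791, all between −0.19 and 0.05. Eif4b, a helicase partner, was at 1777 and 1922 with a ratio of 0.06, but its other probe set above the filter read 615 and 295, a ratio of −0.93. Both Eif4b probe sets carry a suffix that marks shared probes or relaxed probe selection. Eif4h was below the filter, at 52.4 and 164, and Eif6, which keeps the subunits apart, read 1352 and 1450.

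**Figure D2:**
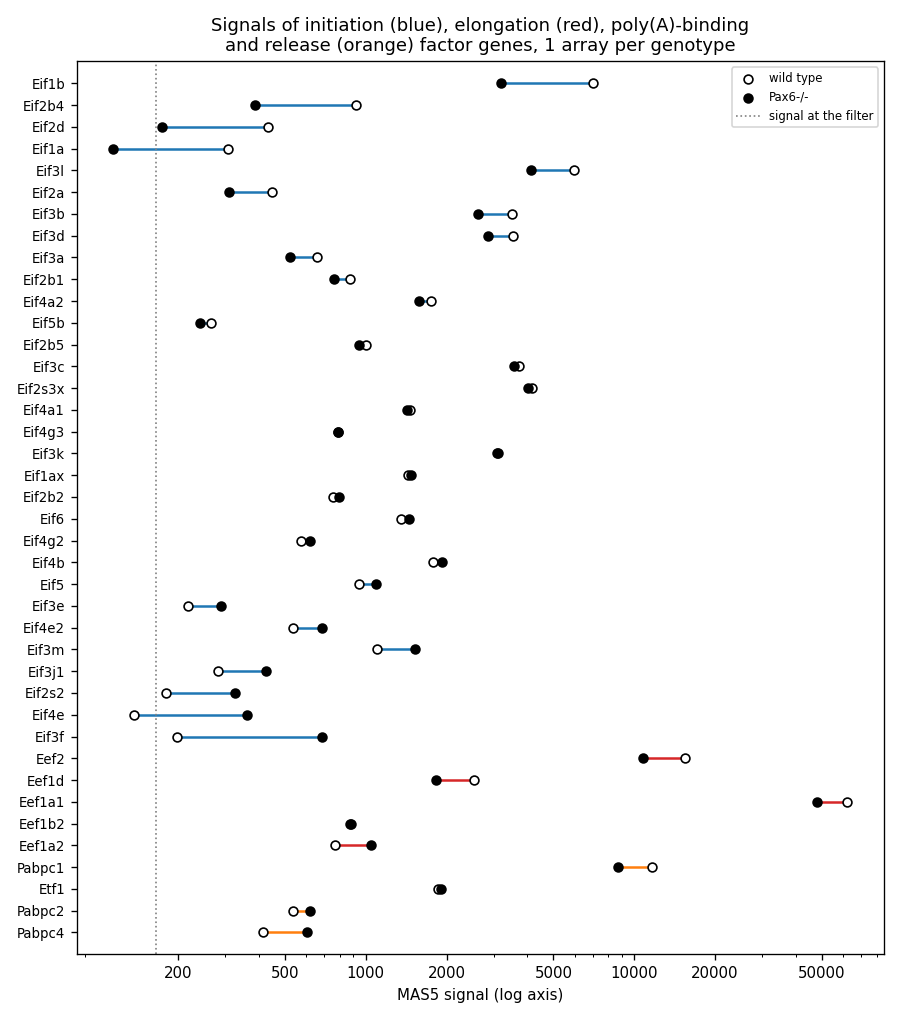
MAS5 signal (log axis) of 40 factor genes above the filter in wild type (open) and Pax6-/- (filled), 1 array each, sorted by log2 ratio within role. Eif1b is the bright gene with a wide gap to the left, Eif3f and Eif4e have the widest gaps to the right, and Eef1a1, Eef2 and Pabpc1 have modest gaps to the left at high signal.

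Elongation factors had a median of −0.42 over 5 genes, 4 of them lower, and of −0.019 after loess scaling. Eef1a1, which delivers charged tRNAs in most cells, read 62080 in wild type against 47985 in the mutant, a ratio of −0.42 that turned to 0.04 after loess scaling. Eef2, the translocase, read 15441 and 10752, a ratio of −0.56, which lay between −0.61 and −0.15 over the alternatives. Both are in the brightest decile of genes, whose median was −0.27. Eef1d, a subunit of the exchange factor that reloads eEF1A, read 2540 and 1828, a ratio of −0.50, and came no nearer to 0 than −0.32 under the alternatives. Its partner Eef1b2 was nearly equal at 885 and 875, by a probe set with a suffix that marks shared probes or relaxed probe selection. The other Eef1b2 probe set, below the filter, read 19.2 and 38.5.

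Eef1a2, the form of eEF1A that replaces Eef1a1 in mature neurons and muscle, differed in sign from Eef1a1, at 768 and 1044, a ratio of 0.36 within the technical spread of 0.38. It stayed between 0.31 and 0.42 over the alternatives. Eef1g, at 47.0 and 158, and Eif5a, at 56.6 and 216, were below the filter; eIF5A relieves stalls during elongation. Both of these dim signals were higher on the mutant array, and without the filter the elongation median was −0.11.

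Poly(A)-binding proteins and the release factor spanned −0.47 to 0.43. Pabpc1, the main cytoplasmic protein on poly(A) tails, read 11687 and 8682, a ratio of −0.47, which came as near to 0 as −0.14 over the alternatives. Pabpc4 read 415 and 607, a ratio of 0.43, but its second probe set, below the filter, read 83.5 and 16.1. Pabpc2 was at 535 and 622, a ratio of 0.14. Etf1, which encodes eRF1, was measured by 5 probe sets with ratios of −0.34, −0.02, −0.02, 0.12 and 0.52, and its brightest read 1863 and 1901. Its 3 brightest lay between −0.34 and −0.02.

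Of the 20 synthetase genes, all above the filter, 14 (70.0%) lay lower and 6 higher in the mutant, beside 51.6% of all genes lower. Their median was −0.18. After loess scaling 15 (75.0%) were lower and 5 higher, beside 50.3% of all genes lower, with a median of −0.14. The medians of all genes in the signal deciles of these members centred on 0.04. The synthetase median stayed between −0.23 and −0.13 over 10 alternatives. Sars, Qars and Rars2 were past 2-fold on the lower side, 3 of 20 beside 5.62% of all genes, and 0 of 20 were past it on the higher side beside 5.17%. With the pseudocount at the 50th percentile, where 2.29% of all genes were 2-fold lower, none of these 3 was.

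Sars, the cytosolic enzyme that charges serine, read 814 in wild type against 318 in the mutant, a ratio of −1.21, or 2.31-fold lower, the largest among members that were lower. Qars, the glutamine enzyme, read 794 and 348, a ratio of −1.07, or 2.11-fold lower. Each had 1 probe set without a suffix, with a technical spread of 0.54. Each stayed past 2-fold in 9 of 10 alternatives, but those that choose or average probe sets could not change its value. With the larger alternative pseudocount Sars was at −0.93 and Qars at −0.83, both short of 2-fold. Next came Hars (histidine) at 511 and 297, Tars (threonine) at 805 and 548, Vars (valine) at 1400 and 1050 and Rars (arginine) at 943 and 744, with ratios of −0.69, −0.54, −0.43 and −0.36. These were lower in the mutant under every alternative that measured them.

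The other cytosolic enzymes lay nearer to 0. Iars (isoleucine) read 1815 and 1711, Gars (glycine) 1079 and 1007 and Lars (leucine) 662 and 607, with ratios of −0.13, −0.14 and −0.16. Kars (lysine), Cars (cysteine) and Nars (asparagine) were at 0.07, 0.08 and 0.20. Aars (alanine) read 1004 and 1213, a ratio of 0.21. Yars (tyrosine) had ratios of 0.42 (869 and 1235) and 0.58 (357 and 594), both probe sets above their wild type value. Wars (tryptophan) had 3 probe sets at −0.20, −0.08 and 0.91, the last a dim one of 156 and 379 with a suffix for shared probes.

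Of the 4 genes with the C/EBP-ATF letters, the 3 whose stretches are shown, Iars, Tars and Yars, had ratios of −0.13, −0.54 and 0.42. These 3 lay on both sides of 0, and none of the 3 was 2-fold apart. Sars, Qars and Rars2, which were, are among the 13 synthetase genes with a promoter window, and those windows had no match to the letters.

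Among the 5 mitochondrial enzymes, Rars2 (arginine) read 739 and 312, a ratio of −1.11, or 2.15-fold lower with a technical spread of 0.54. With the larger alternative pseudocount Rars2 was at −0.84, short of 2-fold. Iars2 (isoleucine) read 392 and 205, a ratio of −0.77. Sars2 had ratios of −0.27 (899 and 760) and 0.34 (186 and 268) with its probe sets above the filter. Fars2 (phenylalanine) was nearly equal, at 460 and 465, and Tars2 (threonine) was at 374 and 478, a ratio of 0.25. Serine charging thus showed the cytosolic Sars at 2.31-fold lower and the mitochondrial Sars2 with probe sets of opposite sign. For arginine both Rars and Rars2 were lower, for isoleucine Iars2 more than Iars, and for threonine Tars and Tars2 had opposite signs; none of these differences could be tested.

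**Figure D3:**
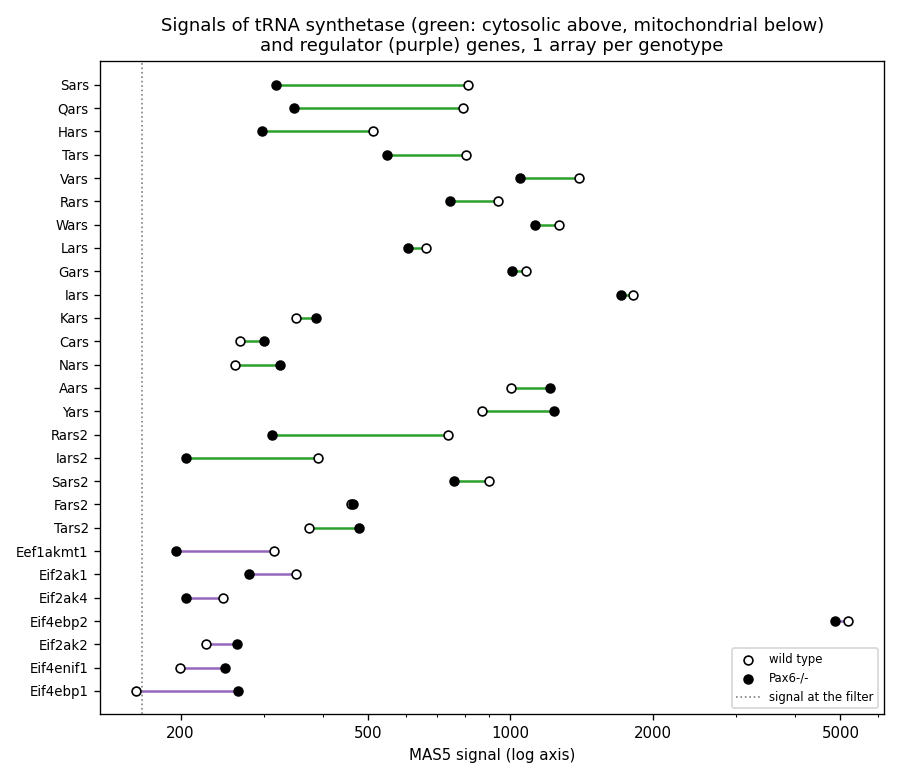
MAS5 signal (log axis) of 20 synthetase and 7 regulator genes above the filter in wild type (open) and Pax6-/- (filled), 1 array each, sorted by log2 ratio within cytosolic synthetases, mitochondrial synthetases and regulators. Sars, Qars, Rars2 and Iars2 have the widest gaps to the left, and Yars and Aars lie to the right of their wild type values.

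Genes that regulate the factors gave small differences, with a median of −0.14 over 7 genes, none 2-fold apart. Of the eIF2 kinases, which answer heme shortage, viral RNA, endoplasmic reticulum stress and amino acid shortage, Eif2ak1 read 352 and 279, Eif2ak2 226 and 264 and Eif2ak4 246 and 205, with ratios of −0.31, 0.12 and −0.24, all well inside the technical spread of 0.72. Eif2ak3 was below the filter, at 91.1 and 228. Eif4ebp1, an inhibitor of eIF4E, read 161 and 265, a ratio of 0.47, and passed the filter only through the mutant array. Eif4ebp2, the 4E-binding protein that is prominent in brain, had ratios of −0.14 (5195 and 4873) and 0.41 (936 and 1318). Eif4enif1, which carries eIF4E into the nucleus, was at 199 and 249, and Eef1akmt1 at 316 and 196, ratios of 0.19 and −0.56. Eef2k, the kinase that inactivates eEF2, was below the filter and equal, at 89.4 and 89.7.

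How far a single probe set can be relied on was seen in the 11 members that had more than 1 probe set above the filter. In 5 of them all probe sets had the same sign, and in 6 the signs were mixed; over all 894 such genes, the 2 probe sets with the highest mean signal shared a sign in 54.1%. Eif1ax, Eif2b5 and Yars had probe sets within 0.5 of each other. Of the 8 members past 2-fold, only Eif1a and Eif2d had a second probe set above the filter, and in both it was lower in the mutant but not 2-fold. The other 6 rest on 1 probe set each.

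**Figure D4:**
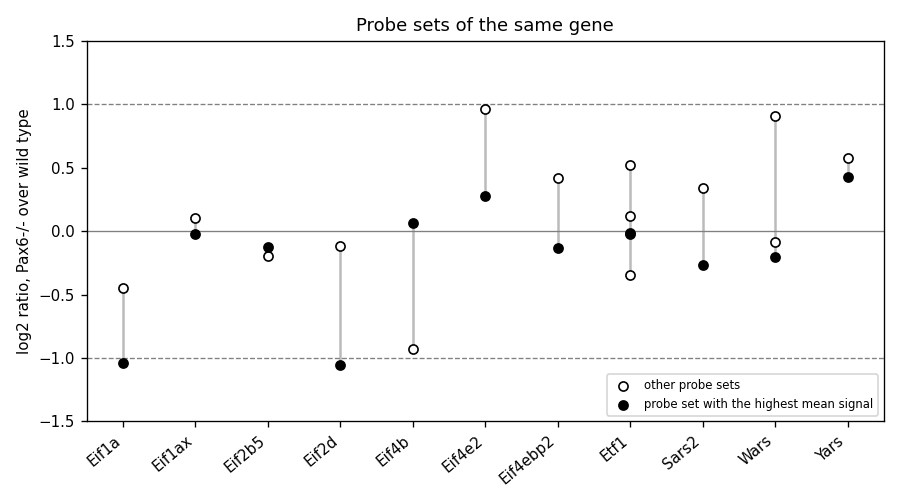
Log2 ratio of every probe set above the filter for the 11 members with more than 1, with the one of highest mean signal filled. Wars, Eif4b and Eif2d have the widest ranges, at 1.11, 0.99 and 0.94, and 6 of the 11 genes cross 0.

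Other genes of the pathway, outside the naming rule, were set beside the members. Further charging genes, 5 above the filter, had a median of 0.03: the phenylalanine enzyme subunits Farsa and Farsb were at −0.11 and 0.80, the glutamate and proline enzyme Eprs at 0.46, and the scaffold proteins of the multi-synthetase complex Aimp1 and Aimp2 at 0.03 and −0.51. Release, rescue and recycling genes, 6 above the filter, had a median of 0.03, with Gspt2, a partner of eRF1, at 0.36, the rescue factor Pelo at 0.36 and, with its other probe set, 0.03, and Hbs1l at −0.23. Mitochondrial translation genes, 4 above the filter, lay between −0.20 and 0.01; the second probe set of the elongation factor Tufm, at 0.22, was opposite to its first at −0.20. None of these 15 genes was 2-fold apart.

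Among 17 regulators of initiation above the filter, 12 (70.6%) lay below 0 and 5 above, beside 51.6% of all genes below 0. Their median was −0.25, and none was 2-fold apart by its brightest probe set. After loess scaling 11 (64.7%) were lower, beside 50.3% of all genes, and the median was −0.12. Cyfip2, a partner of the mRNA-binding protein Fmr1, had the largest difference at −0.63 (1390 and 899), with Dhps, the first enzyme of the eIF5A modification hypusine, and Akt1, a kinase upstream of mTOR, also at −0.63. Dhps read 254 and 142, so it passed the filter only through the wild type array, where it was high. Its difference was inside the technical spread of 0.72 at such signals. The brighter Mtor probe set was at 0.03 (1183 and 1249), but a second one above the filter read 577 and 132, a ratio of −1.67, or 3.18-fold lower, with a mutant signal below the filter level. Of 15 genes of the integrated stress response and ATF4 targets above the filter, 9 had lower ratios and 6 higher ones (8 and 7 after loess scaling). Their median was −0.31, against −0.23 after that scaling. At least 2-fold lower were 3 of 15, beside the 5.62% of all genes: Atf3 at −1.75 (623 and 135), Ddit4 at −1.03 (2529 and 1233) and Psat1, an enzyme of serine synthesis, just past 2-fold (3998 and 2019). The Atf3 probe set passed the filter only through the wild type array, where it was high, and a second one above the filter was at 0.16. Atf4 was at 0.27 (2595 and 3246) and the ATF4 target Asns at −0.43 (1760 and 1333). The list held no gene at least 2-fold higher above the filter, and Trib3, below it, read 50.9 and 301.

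Markers of the cells in the tissue moved on the same arrays. Of 13 cortical markers listed, 7 were measured here, and the other 6 were not analysed here. The 7 summed to 17047 in wild type and 6917 in the mutant, with 6 lower. Tbr1 read 5088 and 2405 and Reln, the 1 not lower, 1148 and 1208, so markers of cortex were present on both arrays. Neurog2 read 3489 and 877. Eomes read 2535 and 167, close to the filter level of 166 in the mutant, and 671 and 216 with its second probe set. Summed signals were 17085 and 14795 for erythroid genes, with a higher ratio in 4 of 9 and in 3 of 6 above the filter. Meningeal and mesenchymal genes summed to 5739 and 6364 (7 of 12, and 5 of 7 above the filter). Vascular genes summed to 1739 and 2205 (5 of 8, and 2 of 4), and microglial genes to 1774 and 3498 (5 of 8, and 4 of 5). Genes of other tissues summed to 1467 and 1598 (3 of 8, and 1 of 4), with Alb, below the filter, at 56.3 and 346. The sums take in markers below the filter, and 48.4% of all genes above it had a higher ratio. The microglial sums rest on the brighter probe sets of Csf1r (372 and 1284) and C1qb (276 and 731); their second ones above the filter read 374 and 513, and 558 and 266, and with those the sums were 2058 and 2262. The part of these markers in the differences of the translation genes was not tested.

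**Figure D5:**
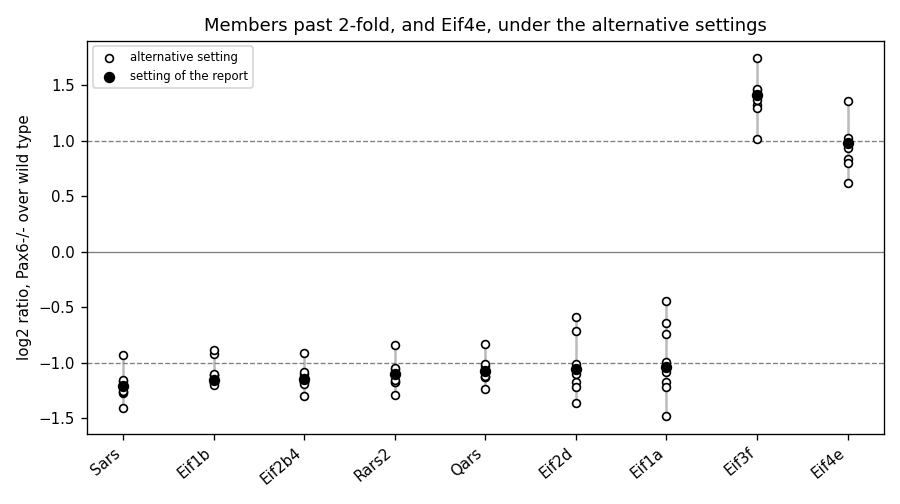
Log2 ratio of the 8 members past 2-fold and of Eif4e, in the setting of the report (filled) and under up to 10 alternatives (open). No gene changed sign. Eif3f stayed past 2-fold throughout, from 1.01 to 1.74, while Eif1a ran from −1.48 to −0.45 and Eif2d from −1.36 to −0.59. Alternatives that choose or average probe sets could not move genes with 1 probe set.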

How the data were processed

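The deposited values are MAS5 signal intensities on a linear scale, 1 per probe set and array; MAS5 is named in the submitters' processing notes, and its version, the target of its scaling and its detection calls are not used here. Of 12488 probe sets, 66 controls were left out of the gene table. Symbols came from GEO's platform annotation, and all 72 members matched the RefSeq gene table (GRCm38.p6) by gene ID. Left out were 1 Y-linked probe set and 1 with several symbols. The mutant minus wild type log2 difference was centred on its median over probe sets above the filter (0.05). Members, roles, gene lists and alternatives were chosen with earlier results of these data known. Genes named are all members, with pathway genes past 2-fold or largest in their list; Asns, Trib3, Atf4, Mtor, Tbr1, Reln and others given as examples were picked with their values known. Other settings tried were quantile scaling, loess scaling (fraction 0.4, 3 iterations) or leaving out the centring; a pseudocount at the 50th percentile, or a floor at the 1st in its place; a filter at the 60th percentile, or none; averaging a gene's probe sets; leaving out suffixed probe sets; 1.5-fold and 3-fold thresholds and, added after seeing the data, the probe set with the highest mean log2 value and, for marker sums, the next probe set above the filter. One promoter stretch is not reported here. Steps were run on simulated data with less noise than the technical spread. Recovery of the simulated ratios was required only for the setting without a pseudocount, so the run is no check of the 2-fold calls. Python 3.11.15, numpy 2.4.6, pandas 2.3.3, statsmodels 0.14.6 and matplotlib 3.10.9 were used.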

Additional observations from a re-analysis of the deposited data

How the results depend on the processing

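Of 650 recomputed values of single members, 646 moved by less than the technical spread, 4 by more and 0 of the members past 2-fold changed sign. The 4 were Eef1a1 after loess scaling (0.04), Eef2 after quantile scaling (−0.15), and Eif4b (−0.43) and Wars (0.21) with the mean of their probe sets. Many of the 650 values could hardly move. Leaving out the centring shifted every ratio by the same 0.05, and settings that choose among probe sets left genes with 1 probe set unchanged. A move within the technical spread could still cross 2-fold: Eif1a, at −1.04, came as near to 0 as −0.45. Of the 67 members, 49 kept their sign in every alternative that measured them. The count of members at least 2-fold higher was 2 with no centring, with no pseudocount and with no signal filter, 3 at 1.5-fold and 0 at 3-fold. The count at least 2-fold lower was 1 with the pseudocount at the 50th percentile, where 2.29% of all genes passed, and 0 at 3-fold. The elongation median was −0.019 after loess scaling; the other medians moved by less than the spread expected for a median of that many genes, although that of the regulators turned to 0.12 with the mean of probe sets and that of poly(A)-binding and release factors to −0.10 without suffixed probe sets. No paired analysis was possible because each genotype has 1 array. Signal over background was not examined, since the arrays' own background was not used here.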
